A study of Mus musculus with 15 samples.

Results

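The replication-dependent histone genes are the clustered genes that encode the 4 core histone classes, H2A, H2B, H3 and H4, and the linker class H1. They were chosen by symbol, as genes whose name starts with Hist1h, Hist2h, Hist3h or Hist4h, and selected on their mean level. Of the 36118 gene identifiers measured, 70 matched. The testis histones Hist1h1t, Hist1h2aa and Hist1h2ba were left out by name, and 10 genes had a mean under 10 normalised counts over the 15 libraries. The remaining 57 members comprised 5 H1, 12 H2A, 17 H2B, 10 H3 and 13 H4 genes, with 1 of the H2B genes, Hist3h2bb-ps, annotated as a pseudogene. In the annotation of the earlier mouse build GRCm38, 44 of them lie on chromosome 13, 9 on chromosome 3, 3 on chromosome 11 and 1 on chromosome 6. That mean is part of the choice and is given as a description only: Hist1h2bh at 9.84 and Hist1h3g at 8.13 fell just outside, and Hist1h2ah at 11.9 and Hist1h3d at 13.6 just inside.

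RNA from whole testes of C57/BL6 mice was sequenced in 15 libraries, 3 in each of 5 groups labelled MTX, HMS-I1, AA, TSA and Control. The labels spell out no abbreviation and state no dose, duration or age, and all groups share strain and tissue. Titles place 3 libraries in HMS-I1, although their treatment entries give 3 different names (HMS-I1 in 1 library, HMS-I2 in another and HMS-I3 in the third), and every HMS-I1 value rests on the titles. No label says that replicates came from separate animals, so p-values reflect only the scatter among libraries, possibly of technical origin. The unit throughout is the authors' normalised count, and tests used log2(normalised count + 1), a scale that understates changes of low genes.

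Replication-dependent histone genes are transcribed in S phase, when new DNA has to be packaged. Most have no intron, and their mRNAs end in a conserved stem-loop, bound by the stem-loop binding protein Slbp, in place of a poly(A) tail. Some of them also give polyadenylated transcripts, mainly in differentiating cells. In the testis, spermatogonia and early spermatocytes replicate their DNA, meiotic cells add testis histones such as Hist1h1t, and spermatids exchange most histones for transition proteins and protamines.

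The stem-loop is shown here because it is the feature that defines this mRNA family and because it differed by class. It was sought in the GENCODE M21 transcripts (GRCm38) as 6 paired bases starting with GG around a loop of 4 bases starting with TT, after the stop codon, and was found in 39 of 57 members. Capitals mark the paired stem and lower case the loop.
Hist1h1c (H1), the form found in all 3 H1, 7 H2A, 7 H2B and 5 H3 genes: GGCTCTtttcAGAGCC
Hist1h2bk (H2B), the form found in 2 H2B and 3 H3 genes: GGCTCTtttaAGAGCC
Hist2h2ac (H2A), found in this gene alone: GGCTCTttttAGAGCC
Hist1h4c (H4), the form found in 7 H4 genes: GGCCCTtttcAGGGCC
Hist1h4b (H4), the form found in 2 H4 genes: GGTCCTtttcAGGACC
Hist1h4i (H4), the form found in 2 H4 genes: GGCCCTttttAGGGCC
The 11 H4 stem-loops started with GGCCCT, or with GGTCCT in 2 genes, and all 28 found in the other classes started GGCTCT. The stem began 22 to 59 bases after the stop codon. Of the other members, 11 have models that end at or near the stop codon, 6 have a longer model with no match, and the pseudogene has no coding model. A match is a description of letters, and no match says only that these letters are not in the model.

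Promoters are shown for a linker gene and for a head-to-head H2A and H2B pair, because these windows carry motifs by class. The windows run from 250 bases before to 50 after the gene's start (RefSeq, GRCm38.p6), 50 of the 57 members had one, and capitals mark matches on either strand to the CCAAT box, the TATA box searched as TATAAA, the H1 box searched as AAACACA, or the octamer searched as ATTTGCAT.
Hist1h1c (chr13:23738557-23738856, plus strand): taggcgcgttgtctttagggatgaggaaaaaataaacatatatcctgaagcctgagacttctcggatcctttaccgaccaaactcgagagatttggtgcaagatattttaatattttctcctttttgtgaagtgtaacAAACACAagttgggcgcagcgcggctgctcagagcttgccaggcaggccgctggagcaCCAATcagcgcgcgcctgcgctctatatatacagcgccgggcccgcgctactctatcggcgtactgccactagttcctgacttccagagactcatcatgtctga
Hist1h2bk (chr13:22035571-22035870, plus strand): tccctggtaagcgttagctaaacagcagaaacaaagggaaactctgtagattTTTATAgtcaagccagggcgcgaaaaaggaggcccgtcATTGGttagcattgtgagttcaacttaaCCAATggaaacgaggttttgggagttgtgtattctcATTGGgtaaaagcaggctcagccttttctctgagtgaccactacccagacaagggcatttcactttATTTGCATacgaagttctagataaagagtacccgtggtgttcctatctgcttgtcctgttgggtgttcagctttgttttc
The second window is also, over 277 of its bases, the promoter window of Hist1h2ah, read from the other strand. Hist1h2ag with Hist1h2bj, Hist1h2ai with Hist1h2bl and Hist1h2ak with Hist1h2bn share their windows in the same way. CCAAT stood in all 5 H1, 11 H2A, 14 H2B and 8 H3 windows and in 3 of 12 H4 windows, against 37.9% of all 27025 promoters. TATAAA stood in 4 of 5 H1, 7 of 11 H2A, 7 of 14 H2B, 4 of 8 H3 and 8 of 12 H4 windows, against 14.2% of all promoters. The H1 box stood in 4 of 5 H1 windows, 1 H2A window and 1 H2B window, against 7.14%. The octamer stood in 5 H2A and 5 H2B windows and in no H1, H3 or H4 window, against 1.75%. Where windows overlap, a match can count for both genes. No data on factor binding were analysed here, and a part of these motifs in the histone levels was not tested.

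The libraries fell into 2 sets that cut across the groups, and this has to be given before any result. The share of the signal from the 13 mitochondrially encoded genes was 1.08% to 1.40% in 6 libraries (MTX 1, HMS-I1 1, AA 1, TSA 1, Control 1 and Control 2, called the first set) and 3.54% to 13.7% in the other 9 (replicates 2 and 3 of each treatment and Control 3, the second set). The sets were drawn at the widest gap in the logarithm of that share with at least 3 libraries on each side, without use of histone values, and the labels name no batch that matches them. The labels also do not say whether poly(A) RNA was selected. Column sums were 2.75e+07 to 4.06e+07, and sequencing depth is unknown. Summed spermatid markers were at 588329 to 863489.6 in first-set libraries, against 161556 to 384859 in second-set libraries, with 7 of 8 markers higher in the first set. Summed Sertoli cell markers were at 23023 to 26014 in first-set libraries, against 36869 to 61345 in second-set libraries, with 0 of 8 higher in the first set. For myoid cells 0 of 5 were higher, for endothelium 0 of 4, for red cells 0 of 5, for Leydig cells 1 of 6 and for macrophages and leukocytes 1 of 6. For spermatogonia 4 of 9 markers were higher in the first set, for spermatocytes 3 of 8 and for fat cells 4 of 5. All 4 epididymis markers were under the minimum level. The part of mitochondrial share and cell make-up in the histone values was not tested, and in bulk tissue fewer cells of a type cannot be told apart from less RNA per cell.

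Histone signal followed these sets. The members together made up 0.124% to 0.214% of the signal of a first-set library, against 0.0207% to 0.0456% of a second-set library. Of the 57 members, 47 had every first-set library above every second-set library (12.8% of all 17896 genes tested), 3 had every first-set library below (12.0%), and 7 overlapped. Sets overlapped in 13456 of the 17896 genes. The mean log2 difference, first set minus second, had a median of 5.14 over the members, against 0.00 over all genes tested. It exceeded 1 in 50 members (14.2% of all genes) and was below -1 in 2 (10.9%). These differences carry no test, since the sets were drawn from the data. In 37 members the second-set mean was itself under 10, so they passed the minimum level through the first set and had to be higher there, and no support is read from these counts. Without that minimum, the 67 genes of the rule had a median difference of 4.94, with 55 above 1. The 10 low genes had means of 0.0652 to 9.84 and no value above 36.2, and 5 of them had a difference above 1.

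**Figure D1:**
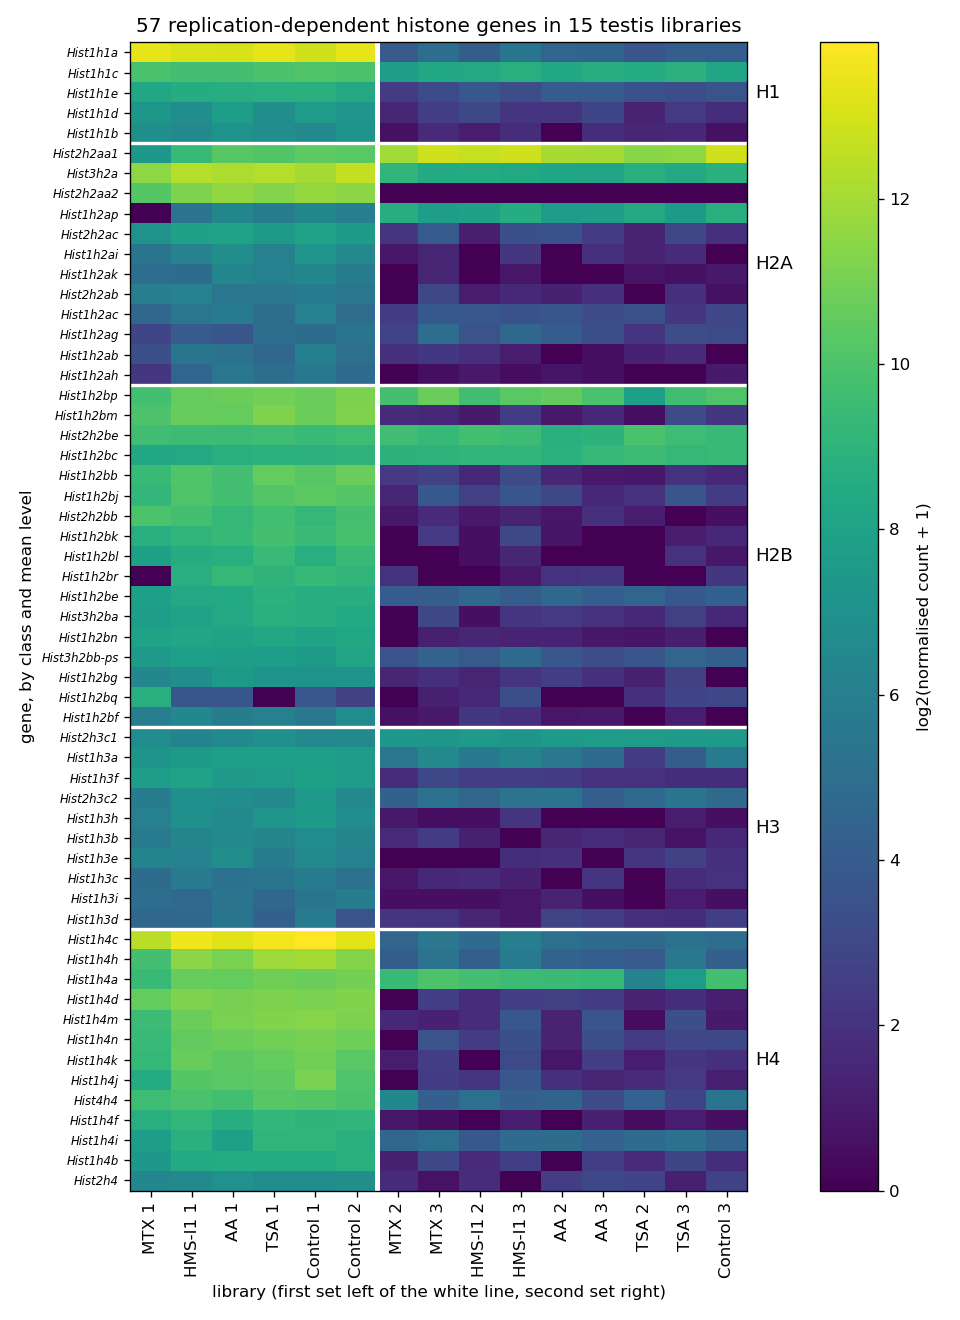
Level of each of the 57 members (rows, by class and then by mean) in each of 15 libraries (columns), as log2(normalised count + 1) on the colour scale. The 6 first-set columns are bright in nearly every row, the 9 second-set columns are dark in most, and a few rows such as Hist2h2be and Hist1h2bc stay level across both.

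The linker histone genes, whose products bind the DNA between nucleosomes, were led by a different gene in each set. Hist1h1a was at 10653 in MTX 1, 8845 in HMS-I1 1, 8569 in AA 1, 10572 in TSA 1, and 7442 and 10449.6 in Control 1 and Control 2. Second-set values of Hist1h1a were 14.8 and 31 in MTX, 16.4 and 41.1 in HMS-I1, 22.1 and 21.6 in AA, 11.9 and 16.6 in TSA, and 16.8 in Control 3. All 6 first-set libraries were high and no library lay between, for a log2 difference of 8.80. Hist1h1c was at 947 in MTX 1, 849 in HMS-I1 1, 839.5 in AA 1, 956 in TSA 1, and 1113 and 962 in Control 1 and Control 2. Second-set values of Hist1h1c were 221 and 319 in MTX, 339 and 439 in HMS-I1, 307 and 405 in AA, 376 and 478 in TSA, and 289.9 in Control 3. The sets of Hist1h1c did not overlap, but its log2 difference of 1.45 was the smallest of the class. Hist1h1a therefore made up a median of 86.5% of the class sum per kb of coding length in the first set, against 5.22% in the second, where Hist1h1c made up 90.4%. Hist1h1e ranged over 306 to 456 (median 398) in first-set libraries, against 4.55 to 15.7 (median 10.2) in second-set libraries. Hist1h1d ranged over 113 to 219 (median 159) in first-set libraries, against 1.56 to 7.04 (median 3.38) in second-set libraries. Both were low in every second-set library.
Hist1h1b, the H1 member of lowest mean, was at 121 in MTX 1, 93.2 in HMS-I1 1, 141 in AA 1, 109.7 in TSA 1, and 91.9 and 145 in Control 1 and Control 2. Second-set values of Hist1h1b were 0.541 and 2.16 in MTX, 1.1 and 2.54 in HMS-I1, 0 and 2.51 in AA, 1.79 and 2.01 in TSA, and 0.568 in Control 3. It was near 0 in all 9, and in AA 2 it was listed at 0.

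Among H2A genes, which encode a core histone that pairs with H2B, some members ran opposite to the rest. Hist3h2a was at 2959 in MTX 1, 5162 in HMS-I1 1, 4567 in AA 1, 5280.2 in TSA 1, and 4146 and 6279 in Control 1 and Control 2. Second-set values of Hist3h2a were 549 and 361 in MTX, 375 and 348 in HMS-I1, 286 and 276 in AA, 416 and 329 in TSA, and 454 in Control 3. The first set was higher throughout, with a log2 difference of 3.64. Its transcript shares 32.1% of its 31-base words with Trim17, a gene that overlaps it, so part of its level is uncertain.
Hist2h2aa1 was at 171 in MTX 1, 677 in HMS-I1 1, 1265 in AA 1, 1125 in TSA 1, and 1405 and 1295 in Control 1 and Control 2. Second-set values of Hist2h2aa1 were 3998 and 7638 in MTX, 6539.8 and 7492 in HMS-I1, 4383 and 4110.0 in AA, 2706 and 2911 in TSA, and 7627 in Control 3. Here every first-set library was below every second-set library. Its neighbour Hist2h2aa2, which encodes the same kind of H2A, was at 1190.0 in MTX 1, 2328 in HMS-I1 1, 3250.2 in AA 1, 2561 in TSA 1, and 3361 and 2886 in Control 1 and Control 2. It was listed at 0 in all 9 second-set libraries. Neither gene has a 31-base word of its own, so the division between them is uncertain. Their sum was 1361 in MTX 1 and 3004 to 4766 in the other first-set libraries, and 2706 to 7638 in the second set, where the ranges overlap. For Hist2h2aa2 the log2 difference of 11.27 is set by the added 1.
Hist1h2ap was at 0 in MTX 1, 38.7 in HMS-I1 1, 82.4 in AA 1, 58 in TSA 1, and 81.4 and 61.1 in Control 1 and Control 2. Second-set values of Hist1h2ap were 404 and 223 in MTX, 244 and 383 in HMS-I1, 198 and 216 in AA, 331 and 191 in TSA, and 421 in Control 3. It too was lower in all first-set libraries, with the lowest difference of the class at -3.13, and 93.4% of its words are shared with Hist1h2ao. Hist1h2ah, the H2A member of lowest mean, was at 3.52 in MTX 1, 22.4 in HMS-I1 1, 42.1 in AA 1, 31.1 in TSA 1, and 48.4 and 27.8 in Control 1 and Control 2. Second-set values of Hist1h2ah were 0 and 0.448 in MTX, 0.914 and 0.398 in HMS-I1, 0.734 and 0.474 in AA, 0 and 0 in TSA, and 0.986 in Control 3. It was near 0 outside the first set, and only 7.47% of its words are its own, so its level is uncertain. The other 7 H2A members were higher in all first-set libraries, except Hist1h2ag, which ranged over 6.4 to 40 (median 22.1) in first-set libraries, against 3.39 to 29.8 (median 9.07) in second-set libraries.

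H2B, the partner of H2A, was the class with the most members whose sets overlapped, 5 of 17. Sets overlapped in 13456 of all 17896 genes tested, so nothing is read from this count. Among the 5 are the twins Hist1h2br and Hist1h2bq, whose sum did not overlap. Hist1h2bm was at 1031 in MTX 1, 1647 in HMS-I1 1, 1558 in AA 1, 2360.4 in TSA 1, and 1756 and 2405 in Control 1 and Control 2. Second-set values of Hist1h2bm were 2.14 and 2 in MTX, 0.999 and 4.44 in HMS-I1, 0.905 and 1.9 in AA, 0.415 and 7.88 in TSA, and 3.5 in Control 3. Its difference of 9.09 was the largest of the class. Hist1h2bp was at 845 in MTX 1, 1561 in HMS-I1 1, 1746 in AA 1, 1980.2 in TSA 1, and 1682 and 2316 in Control 1 and Control 2. Second-set values of Hist1h2bp were 887 and 1689.6 in MTX, 779.9 and 1282 in HMS-I1, 1524 and 948 in AA, 225 and 779.6 in TSA, and 1082 in Control 3. The sets overlapped, with MTX 1, HMS-I1 1 and Control 1 in the range of the second set and TSA 2 lowest of all.
Hist2h2be was at 787 in MTX 1, 742 in HMS-I1 1, 732 in AA 1, 791 in TSA 1, and 674 and 749 in Control 1 and Control 2. Second-set values of Hist2h2be were 785 and 621 in MTX, 825 and 736 in HMS-I1, 443 and 499 in AA, 952 and 752 in TSA, and 657 in Control 3. Its first-set values lay inside the range of the second set. Hist1h2bc was at 318 in MTX 1, 332 in HMS-I1 1, 418 in AA 1, 468 in TSA 1, and 482 and 529 in Control 1 and Control 2. Second-set values of Hist1h2bc were 509 and 531 in MTX, 558 and 575 in HMS-I1, 473 and 608 in AA, 737 and 619.8 in TSA, and 676 in Control 3. They overlapped, and the difference of -0.48 was the lowest of the class. Both of these genes have transcript models that run on after the stop codon, for 2192 bases in Hist2h2be and 742 in Hist1h2bc, and in which no stem-loop was found.
Hist1h2br and Hist1h2bq are near twins, with 98.3% of the words of Hist1h2bq shared. Hist1h2br was at 0 in MTX 1, 419.9 in HMS-I1 1, 616 in AA 1, 519 in TSA 1, and 629.7 and 539 in Control 1 and Control 2. Hist1h2bq was at 412 in MTX 1, 12.4 in HMS-I1 1, 12 in AA 1, 0 in TSA 1, and 12.5 and 5.33 in Control 1 and Control 2. The pair summed to 412 in MTX 1, 432 to 642 in the other first-set libraries and 1.31 to 10.4 in the second set, without overlap. Which twin carried the signal in MTX 1 is uncertain. Hist1h2bf, the H2B member of lowest mean, was at 59.3 in MTX 1, 89.5 in HMS-I1 1, 57.2 in AA 1, 65.3 in TSA 1, and 45.4 and 103 in Control 1 and Control 2. Second-set values of Hist1h2bf were 0.514 and 0.959 in MTX, 3.78 and 2.74 in HMS-I1, 0.773 and 0.913 in AA, 0 and 1.17 in TSA, and 0 in Control 3. It was near 0 in the second set, as were Hist1h2bb at 0.791 to 8.03 and Hist2h2bb at 0 to 2.85. In first-set libraries Hist1h2bb reached 1675 and Hist2h2bb 993. All 31-base words of Hist2h2bb also occur in other annotated transcripts, so its level is uncertain.

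H3 genes, which encode the core histone with the most studied modified tail, had the lowest class sums per kb of coding length in the first set. Hist2h3c1 was at 108 in MTX 1, 75.5 in HMS-I1 1, 101 in AA 1, 126 in TSA 1, and 92.2 and 96.5 in Control 1 and Control 2. Second-set values of Hist2h3c1 were 170.2 and 157 in MTX, 179.6 and 148 in HMS-I1, 193 and 203 in AA, 201 and 177 in TSA, and 179 in Control 3. All first-set libraries were below the second set, and the difference was -0.84. All 31-base words of Hist2h3c1 also occur in other annotated transcripts, so its level is uncertain.
Hist1h3a was at 145 in MTX 1, 188 in HMS-I1 1, 227 in AA 1, 228 in TSA 1, and 231 and 201 in Control 1 and Control 2. Second-set values of Hist1h3a were 42.3 and 90.5 in MTX, 47.8 and 74.4 in HMS-I1, 46 and 27.6 in AA, 4.28 and 15.9 in TSA, and 50.2 in Control 3. The sets did not overlap, and TSA 2 and TSA 3 were the lowest 2 libraries. Hist1h3h, with the largest difference of the class at 6.24, was at 65.2 in MTX 1, 125 in HMS-I1 1, 100.2 in AA 1, 148 in TSA 1, and 190.3 and 111 in Control 1 and Control 2. Second-set values of Hist1h3h were 0.921 and 0.449 in MTX, 0.459 and 3.49 in HMS-I1, 0 and 0 in AA, 0 and 1.1 in TSA, and 0.494 in Control 3. Only 5.77% of the 31-base words of Hist1h3h are its own, so its level is uncertain. Hist1h3d, the H3 member of lowest mean, was at 22.6 in MTX 1, 23.8 in HMS-I1 1, 41.3 in AA 1, 19.1 in TSA 1, and 54.8 and 11.1 in Control 1 and Control 2. Second-set values of Hist1h3d were 3.52 and 3.39 in MTX, 1.86 and 0.861 in HMS-I1, 6.29 and 4.87 in AA, 2.6 and 2.56 in TSA, and 5.08 in Control 3. It too was higher in the first set, with Control 2 its lowest library there.

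H4, the partner of H3 in the nucleosome core, had the largest ratio between the sets in its class sum. Hist1h4c, the member of highest mean of all, was at 5589.9 in MTX 1, 12533 in HMS-I1 1, 9748 in AA 1, 13042 in TSA 1, and 15204 and 10319.5 in Control 1 and Control 2. Second-set values of Hist1h4c were 22.2 and 43.8 in MTX, 28 and 60 in HMS-I1, 34.2 and 28.4 in AA, 26.6 and 36.9 in TSA, and 30.5 in Control 3. Every first-set library was high, MTX 1 least so. Hist1h4h was at 864 in MTX 1, 2811 in HMS-I1 1, 2192 in AA 1, 3753 in TSA 1, and 4126 and 2593 in Control 1 and Control 2. Second-set values of Hist1h4h were 16.1 and 38.9 in MTX, 17.8 and 54 in HMS-I1, 20.6 and 17 in AA, 13.6 and 46.6 in TSA, and 18.5 in Control 3. It followed the same order, with MTX 1 again lowest of the first set.
Hist1h4a was at 668 in MTX 1, 1621 in HMS-I1 1, 1590.4 in AA 1, 1892 in TSA 1, and 1664 and 2000.5 in Control 1 and Control 2. Second-set values of Hist1h4a were 667 and 1023 in MTX, 845 and 724 in HMS-I1, 713 and 632 in AA, 72.4 and 194 in TSA, and 818 in Control 3. It was the only H4 gene whose sets overlapped, because MTX 1 fell among the second-set libraries. Hist1h4d, with the largest difference of the class at 9.25, was at 1575 in MTX 1, 2365 in HMS-I1 1, 2105 in AA 1, 2280.4 in TSA 1, and 2159 and 2418 in Control 1 and Control 2. Second-set values of Hist1h4d were 0 and 5.07 in MTX, 2.42 and 4.89 in HMS-I1, 5.27 and 4.33 in AA, 1.51 and 2.53 in TSA, and 1.23 in Control 3. Hist2h4, the H4 member of lowest mean, was at 84 in MTX 1, 100.4 in HMS-I1 1, 129 in AA 1, 108 in TSA 1, and 108 and 117 in Control 1 and Control 2. Second-set values of Hist2h4 were 2.25 and 0.589 in MTX, 2.35 and 0 in HMS-I1, 4.68 and 7.15 in AA, 5.84 and 1.33 in TSA, and 5.47 in Control 3. Both were near 0 in the second set, as were 8 of the 13 H4 genes by their second-set mean under 10.

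Summed by class and divided by coding length, the gap was uneven. The H4 sum had a median of 86762 normalised counts per kb in the first set, against 2673 in the second, a ratio of 32.5. For H1 the median was 17372 in first-set libraries, against 588 in second-set libraries, a ratio of 29.6. The ratio was 4.65 for H2B, at 26992 in first-set libraries against 5804 in second-set libraries. It was 3.88 for H3, at 2469 in first-set libraries against 637 in second-set libraries. It was 1.94 for H2A, at 24512 in first-set libraries against 12643 in second-set libraries. These ratios and their order rest on the leading members. Without Hist1h1a the H1 sum was 2462 in first-set libraries against 562 in second-set libraries, a ratio of 4.38. Without Hist2h2aa1, whose division from its neighbour is uncertain, the H2A sum was 21293 in first-set libraries against 1667 in second-set libraries, a ratio of 12.8, above those of H2B and H3. Without Hist3h2a the H2A sums were 11431 in first-set libraries against 11758 in second-set libraries, a ratio of 0.972. Without the second-set leaders the ratio was 193 for H4 (Hist1h4a left out), 11.3 for H3 (Hist2h3c1 left out) and 282 for H1 (Hist1h1c left out). With the leaders of both sets left out, the ratio was 137 for H4, 43.9 for H1, 11.2 for H2A, 9.02 for H3 and 5.07 for H2B. With all members summed, the sets did not overlap in any class except H2A, where MTX 1 at 11787 lay within the second-set range of 8799 to 21685. H4 made up a median of 54.5% of the summed level per kb in the first set, against 10.8% in the second. H2A made up 14.0% of it in the first set, against 57.3% in the second.

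**Figure D2:**
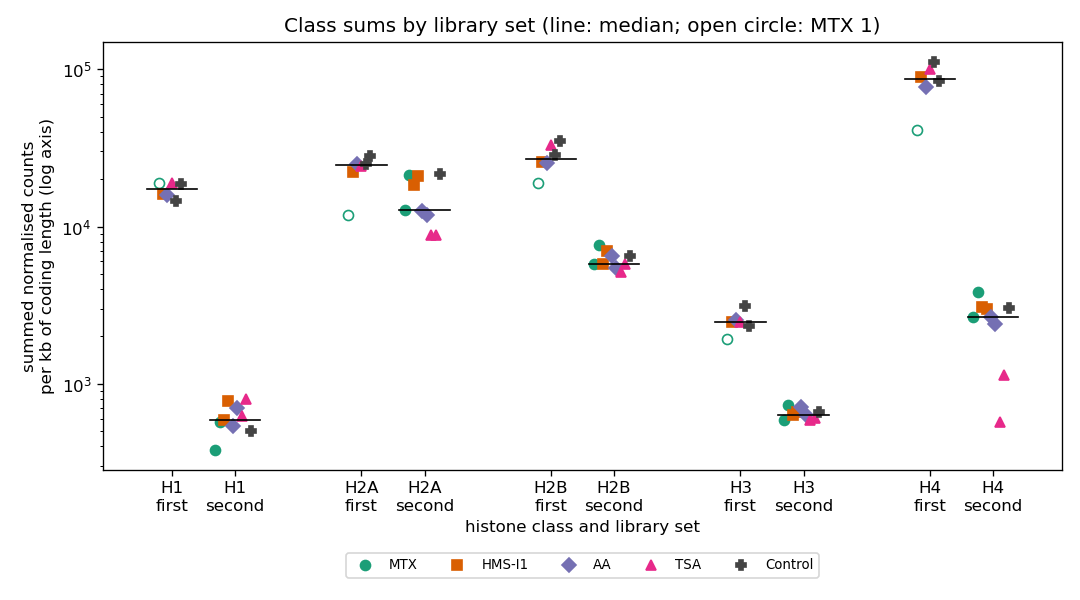
Summed normalised counts per kb of coding length on a log axis, for each class in the first and the second library set, with 1 symbol per library and a line at the median. The H4 medians are 86762 in the first set against 2673 in the second, the H2A medians differ least (24512 against 12643), and the open circle of MTX 1 is lowest of the first set in all classes but H1.

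**Figure D3:**
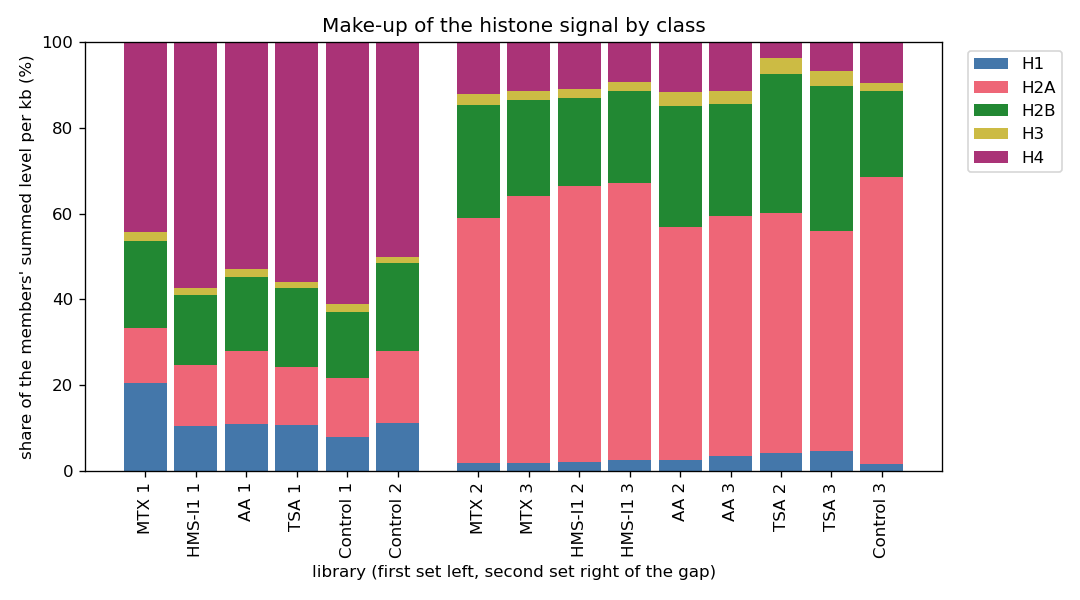
Share in percent of the members' summed level per kb that each class made up, as stacked bars, 1 per library, first set left of the gap. H4 is the largest part of every first-set bar (44.3% to 61.1%) and H2A of every second-set bar (51.3% to 67.0%).

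By sums per kb of coding length, the leading gene of every class changed with the set. H4 was led by Hist1h4c in the first set, with a median of 42.7% of the class sum per kb, and by Hist1h4a in the second, with 84.2%. H3 was led by Hist1h3f with 20.4% in the first set and by Hist2h3c1 with 68.9% in the second. H2A was led by Hist3h2a with 56.2% in the first set and by Hist2h2aa1 with 89.3% in the second. H2B was led by Hist1h2bm with 16.6% in the first set and by Hist1h2bp with 44.0% in the second. These leaders follow from division by coding length, and transcript models differ more in length. That of Hist3h2a is 2146 bases long and that of Hist2h2aa2 528, with first-set medians of 4864 and 2724. In H3 that of Hist1h3f is 1261 bases long and that of Hist1h3a 534, with first-set medians of 206 and 214. Divided by model length, these medians are higher for Hist2h2aa2 than for Hist3h2a and for Hist1h3a than for Hist1h3f. The first-set leaders of H2A and H3 therefore depend on the length used. Of the 56 members with a coding model, 15 have one that carries the polyadenylation signal AATAAA or its variant form ATTAAA in its last 50 bases. Among them are the second-set leaders of 4 classes, Hist1h1c, Hist1h2bp, Hist2h3c1 and Hist1h4a, but not Hist2h2aa1, that of H2A. These 15 had a median log2 set difference of 3.89 and 5 with overlapping sets. The 41 without had a median of 5.32 and 2 with overlapping sets. The 6 members with a longer model but no stem-loop had a median of 1.89, and 5 of them overlapped. Hist2h2be, with a set difference of 0.13, is counted as overlapping in both the 15 and the 6. So are Hist1h4a, through MTX 1 alone, and the twins Hist1h2br and Hist1h2bq. The division between these twins is uncertain, and their sum did not overlap, at 412 to 642 in first-set libraries against 1.31 to 10.4 in second-set libraries. Nothing is read from these counts of overlap. A difference above 1 was found in 12 of the 15 and in 37 of the 41. With the signal, Hist1h4j differed by 8.23, Hist1h4h by 6.62, Hist3h2ba by 6.59, Hist1h2br by 6.53 and Hist4h4 by 5.45. Also with the signal, Hist2h3c1 was at -0.84, Hist2h2be at 0.13, Hist1h2bp at 0.83, Hist1h1c at 1.45 and Hist1h4a at 1.55. The rest of the 15 lay between, from Hist1h2bq at 2.22 to Hist2h4 at 4.94. Without the signal, Hist2h2aa1 was at -2.58 and Hist1h2ap at -3.13, and Hist2h2aa2 was highest at 11.27. A part of polyadenylation in these differences was not tested. Hist1h1a, which has no stem-loop match, differed by 8.80. By sharing of sequence the medians were 5.29 over the 35 members with under 50% unique 31-base words and 5.02 over the other 22.

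Over lists of genes that make, bind or replace these histones the median set difference was near 0 or below it. Single genes were higher or lower throughout the first set. Over 27 genes of histone mRNA processing and cluster transcription the median was -0.12, with 12 above 0. In 3 of these 27 every first-set library was above the second set, as it was in 12.8% of all genes. In 7 of the 27 every first-set library was below the second set, as it was in 12.0% of all genes. Among the 3 higher ones Sympk, a scaffold of the 3′ processing machinery, was at 5746 to 8313 in first-set libraries, against 1075 to 4786 in second-set libraries. Slbp was at 4241 to 4737 in first-set libraries, against 3595 to 5276 in second-set libraries. Npat, the coactivator of the clusters, was at 1219.7 to 1421 in first-set libraries, against 728 to 1993 in second-set libraries. The median was -0.30 over 15 histone chaperone genes and -0.27 over 30 DNA replication genes. Every first-set library was above the second set in 1 of the chaperone genes and 2 of the replication genes (12.8% of all genes). It was below in 2 of the chaperone genes and 4 of the replication genes (12.0% of all genes). Of 13 measured histone genes outside the clusters, 4 had a difference above 0, and the median was -0.16. The spermatid linker histone genes Hils1 and H1fnt were higher in every first-set library, like most members. Hils1 was at 17882 to 26649 in first-set libraries, against 409 to 13420.5 in second-set libraries, a difference of 2.07. H1fnt was at 18905 to 21797 in first-set libraries, against 5159 to 16134 in second-set libraries, a difference of 0.78. In 3 of the 13 every first-set library was lower (12.0% of all genes). Among these 3 was H1fx, a replication-independent linker histone, at 29.1 to 122 in first-set libraries, against 469 to 796 in second-set libraries. The testis histones left out by the rule shared the gap: Hist1h1t, the testis linker histone, was at 15472 to 20959.8 in first-set libraries, against 47.4 to 147 in second-set libraries.

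Within the first set, MTX 1 stood apart in the core classes. It was the lowest of 6 libraries in 40 of 57 members (20.7% of all genes tested). By class it was lowest in 12 of 13 H4, 10 of 12 H2A, 12 of 17 H2B, 5 of 10 H3 and 1 of 5 H1 genes. Relative to the median of the other 5 libraries, its class sum per kb was 0.458 for H4, 0.475 for H2A, 0.663 for H2B and 0.785 for H3, but 1.18 for H1. Its H4 sum was 40878 per kb against 77375 to 111325 in the other 5, while its H1 sum was 18966 against 14460 to 18954. MTX 2 and MTX 3 showed no such order in the second set, where H4 sums were 2644 and 3818 per kb against 574 to 3059 in the other 7. With a single MTX library in the first set, there is no replicate check. Control 1 was the highest of the 6 in 24 members (18.6% of all genes), Control 2 in 16 (19.0%). Leaving MTX 1 out, 49 members had all first-set libraries above the second set (13.9% of all genes).

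Against Control, no member was called in any treatment. In limma with a model of 5 group means, 0 of 57 members and 0.0% of 17896 genes had an adjusted p under 0.05 in MTX, HMS-I1, AA or TSA against Control. At an unadjusted p under 0.05 there were 98 genes in MTX, 73 in HMS-I1, 143 in AA and 1027 in TSA, with 0 members in MTX, HMS-I1 and AA and 1 in TSA. The 6 pairs of treatments and the test of any difference among the 5 groups also called 0 members. The median fitted log2 fold change of the members was -1.92 in MTX, -1.76 in HMS-I1, -1.80 in AA and -1.97 in TSA. Values were below 0 in 54, 53, 54 and 53 members in that order, against 52.1%, 52.1%, 52.6% and 49.4% of all genes. Control holds 2 first-set libraries and each treatment 1, so treatment and set are partly confounded, and all 4 comparisons share the Control libraries. With the library set as a term in the model, medians were -0.38 in MTX, -0.01 in HMS-I1, -0.18 in AA and -0.11 in TSA. Values were then below 0 in 40, 30, 36 and 37 members (50.9%, 52.2%, 50% and 51.6% of all genes). Again 0 members and 0 genes were called, with 5, 2, 0 and 2 members at an unadjusted p under 0.05. The share of all genes at that level in this fit is not given here, so nothing is read from these counts. Within the first set alone the medians were -0.79, -0.22, -0.16 and -0.07, and within the second set alone 0.02, 0.12, 0.03 and -0.00, in the order MTX, HMS-I1, AA, TSA and with no test.

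**Figure D4:**
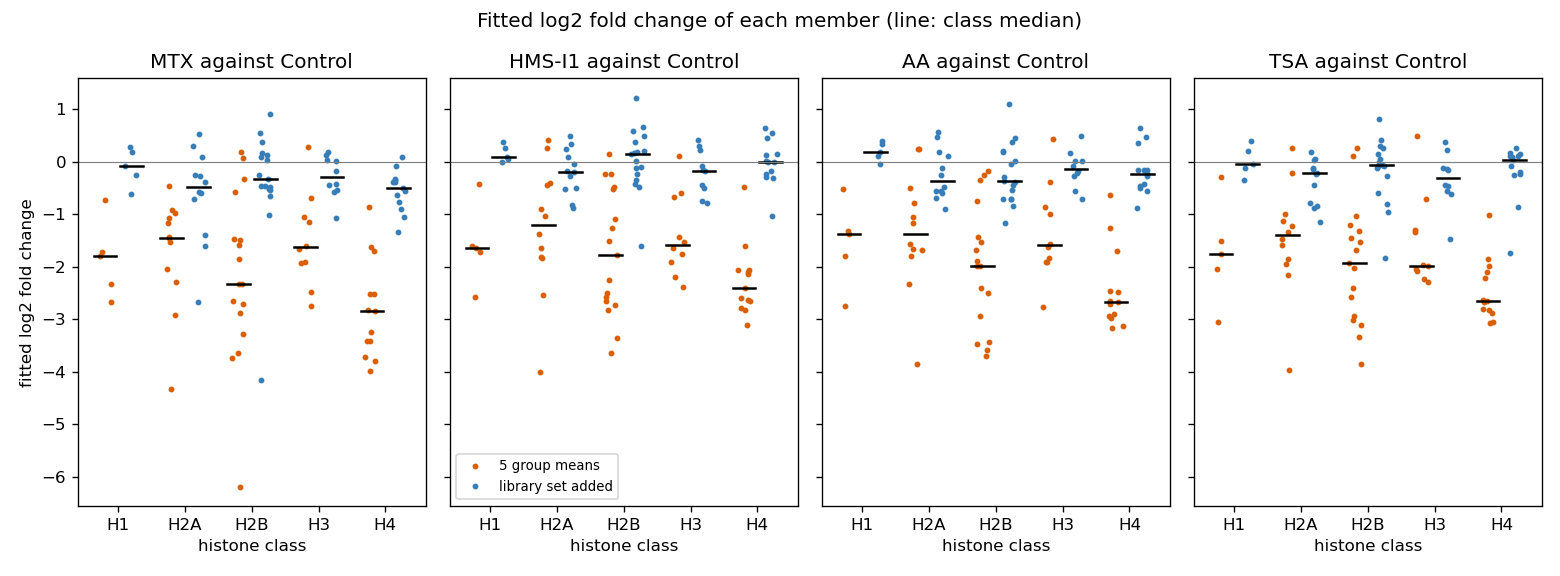
Fitted log2 fold change of each member in each treatment against Control (1 panel each), by class, from the model of 5 group means and with the library set added, with lines at class medians. The medians of all members lie at -1.76 to -1.97 without the set and at -0.01 to -0.38 with it.

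By class, H4 had the lowest medians in the model of group means, -2.85 in MTX, -2.40 in HMS-I1, -2.67 in AA and -2.65 in TSA. With the set term these H4 medians were -0.50, -0.01, -0.23 and 0.04 in that order. The H1 medians were -1.79, -1.64, -1.37 and -1.75 by group means and -0.09, 0.10, 0.19 and -0.05 with the set term. For H2A the medians with the set term were -0.48, -0.19, -0.36 and -0.22, and for H2B they were -0.33, 0.15, -0.36 and -0.06. For H3 they were -0.30, -0.17, -0.13 and -0.31. None of these carries a test.

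In MTX against Control with the set term, the members of smallest p were Hist1h2bc and Hist1h2ap. Hist1h2bc was at 318, 509 and 531 in MTX and 482, 529 and 676 in Control, a log2 fold change of -0.52 (SE 0.17, limma adjusted p = 1.00). The groups overlapped, with the MTX 1 library lowest. Hist1h2ap was at 0, 404 and 223 in MTX and 81.4, 61.1 and 421 in Control, at -2.67 (SE 1.10). By group means the members of smallest p in their classes were Hist1h2br at -6.19 (SE 2.97), Hist1h2ah at -2.92 (SE 1.79), Hist2h4 at -2.52 (SE 2.09), Hist2h3c2 at -1.14 (SE 0.86) and Hist1h1c at -0.74 (SE 0.65). The value of Hist1h2br rests on the uncertain division from its twin.

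In HMS-I1 against Control, Hist1h2br was at -3.64 (SE 2.97), Hist2h4 at -2.64 (SE 2.09), Hist1h2ak at -2.54 (SE 2.22), Hist1h1e at -1.72 (SE 2.13) and Hist1h3d at -1.65 (SE 1.24) by group means. With the set term Hist1h2bc was at -0.42 (SE 0.17) and Hist1h1a at 0.37 (SE 0.37). In AA against Control, Hist4h4 was at -2.67 (SE 2.30), Hist1h3c at -1.91 (SE 1.80), Hist3h2a at -1.68 (SE 1.5), Hist1h1c at -0.52 (SE 0.65) and Hist2h2be at -0.34 (SE 0.22). Hist2h2be was at 732, 443 and 499 in AA and 674, 749 and 657 in Control. AA 2 and AA 3 were below all Control libraries and AA 1 among them.

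By group means, TSA gave the single member at an unadjusted p under 0.05. Hist1h4a was at 1892, 72.4 and 194 in TSA and 1664, 2000.5 and 818 in Control, a log2 fold change of -2.22 (SE 0.88, limma adjusted p = 0.848). TSA 2 and TSA 3 were below all other libraries and TSA 1 was among the highest. With the set term the value was -1.74 (SE 0.67, limma adjusted p = 0.590). Hist1h3a was at 228, 4.28 and 15.9 in TSA and 231, 201 and 50.2 in Control, at -2.29 (SE 1.19) by group means and -1.48 (SE 0.66) with the set term. Hist1h2bp was at -1.20 (SE 0.62) and -0.95 (SE 0.55) in the same models. Hist1h2ah was at -2.15 (SE 1.79) and Hist1h1d at -2.05 (SE 2.17) by group means.
Leaving out TSA 1, 2 members were called in TSA against Control by limma (5.54% of all genes, 992 in number). Hist1h4a was then at -3.55 (SE 0.55, limma adjusted p = 0.00490). Hist1h3a was at -3.83 (SE 0.97, limma adjusted p = 0.0373). The TSA group then consists of second-set libraries alone while Control keeps 2 first-set libraries, so TSA and set cannot be told apart in that fit. Hist1h4a was also called without TSA 1 against MTX, at -2.69 (SE 0.55, 4.29% of all genes called), against HMS-I1, at -3.06 (SE 0.55, 3.0%), and against AA, at -2.91 (SE 0.55, 3.44%), in limma, and in the limma test of any difference among the 5 groups (1.37%).

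Within the second set, TSA 2 and TSA 3 were both below the other 7 libraries in 4 members, Hist1h4a, Hist1h3a, Hist1h2bp and Hist2h2aa1, and 12.1% of all genes did the same. At 7.02% of the members, the share was not above that of all genes. They were both above the other 7 in Hist1h3e alone (3.58% of all genes). The H4 class sum was 574 and 1137 per kb in these 2 libraries against 2404 to 3818 in the other 7. Without Hist1h4a, itself chosen for being low in these libraries, the H4 sum was 342 and 517 per kb in TSA 2 and TSA 3 against 350 to 683 in the other 7, with TSA 2 just below and TSA 3 within. Hist1h2bp in TSA 3, at 779.6, was just under the next library, HMS-I1 2, at 779.9. Corresponding counts of members both below were 1 for MTX (Hist1h1e, 3.66% of all genes), 1 for HMS-I1 (Hist1h3d, 1.07%) and 2 for AA (Hist3h2a and Hist2h2be, 5.14%). Counts both above were 1 for MTX (Hist1h2ab, 2.36%), 1 for HMS-I1 (Hist1h2bf, 0.855%) and 1 for AA (Hist1h1e, 2.59%). In TSA against Control all 8 spermatid markers had a fitted log2 fold change below 0 (49.4% of all genes). Their median was -1.31 by group means and -0.96 with the set term, and limma called 0 of them. By group means it was -0.33 in MTX, -0.28 in HMS-I1 and -0.52 in AA. The part of spermatid content in the TSA values was not tested.

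**Figure D5:**
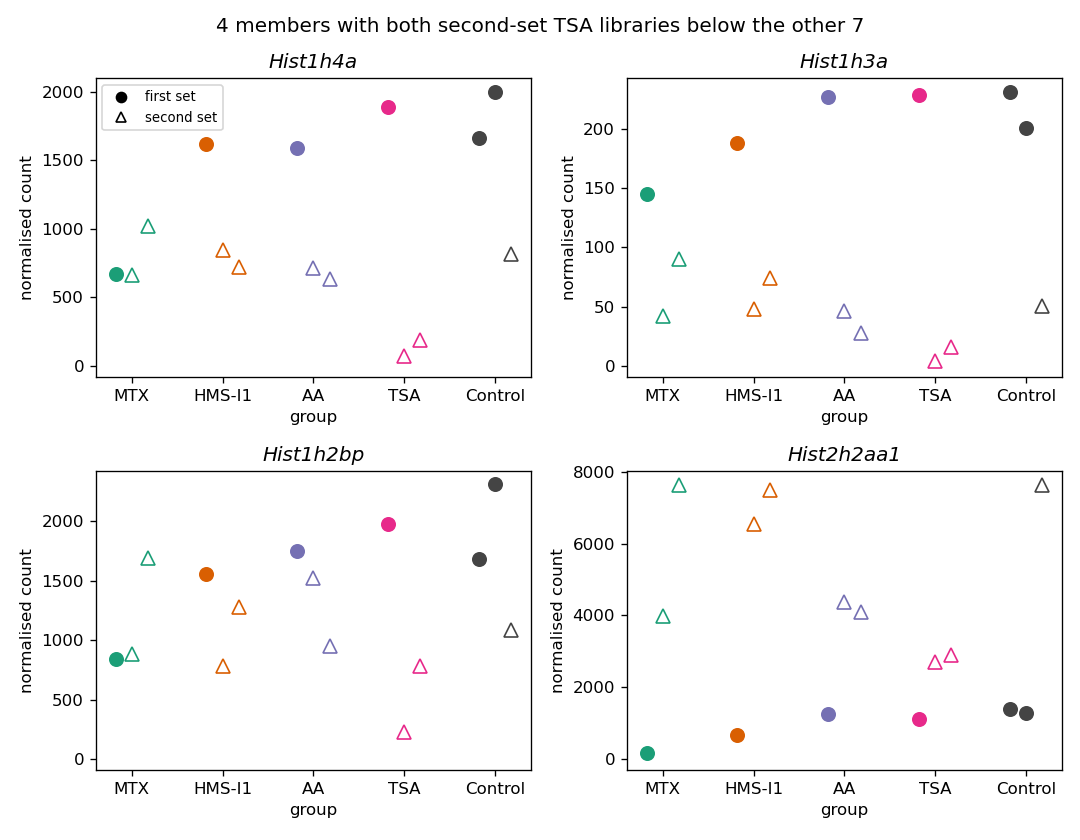
Normalised counts of Hist1h4a, Hist1h3a, Hist1h2bp and Hist2h2aa1 in each library, by group, with filled circles for the first set and open triangles for the second. The 2 open TSA triangles lie below the other 7 triangles in each panel, while the filled TSA circle lies among the other first-set libraries.

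In the lists of related genes limma called no gene in any treatment against Control, where 0.0% of all genes were called. The smallest unadjusted p values belonged to Hinfp, the H4 promoter factor, at -0.60 (SE 0.24) and Tonsl, a reader of new histone H4, at -1.30 (SE 0.54), both in MTX against Control. In HMS-I1 against Control Pou2f1, which binds the octamer of H2B promoters, was at -0.94 (SE 0.51). In AA against Control Slbp was at -0.27 (SE 0.18) and the thymidylate synthase gene Tyms at 1.01 (SE 0.49). In TSA against Control the 3′ processing factor gene Cstf2 was at -0.82 (SE 0.43) and the kinase gene Cdk2 at 0.37 (SE 0.23).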

How the data were processed

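The authors' deposited table holds a signal per gene and library, normalised counts for 36118 identifiers in 15 libraries. DESeq2 1.34.0, Salmon 0.12.0, FastQC 0.11.9 and the build GRCm39 are named, without a role, per the submitters' processing notes. Salmon estimates can split reads between near-identical histone genes, and no source used here gives the strand setting. Per the labels' protocols RNA came from whole testes by Trizol and column. Depth is unknown, so no counting intervals are given. The members and the gene lists were chosen with earlier results of these data known. Names (35825 identifiers matched, 293 not) and transcripts came from GENCODE M21 (GRCm38), newer symbols (56 members) and promoters from RefSeq.

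Values were tested as log2(normalised count + 1) with limma 3.58.1 in R 4.3.3 (lmFit, eBayes with trend), for genes with a mean of at least 10, in 1 model of 5 group means with 10 residual degrees of freedom, two-sided, with Benjamini-Hochberg adjustment over all genes and a threshold of 0.05. The fit was checked on simulated data. Class sums divide each coding gene by its shortest annotated coding length, not by the length of its transcript model. Members named with all values are the 2 of highest and the 1 of lowest mean per class and those of largest and smallest set difference. Those of smallest p per class and treatment by group means are given with fold change and SE, not all with library values. With the set term only some members of smallest p are named. The 4 genes in the section on TSA in the second set, the related genes Sympk, Hils1, H1fnt and H1fx, and the members set against their polyadenylation signal were chosen after their values were seen. Replicate numbers were not taken as pairs. In deviations from the group means, Control 2 correlated at -0.58 to -0.30 with the treatment libraries of its number. Control 2 is a first-set library and those are second-set libraries. The same correlations between groups were 0.41 to 0.75 for number 1 and 0.21 to 0.70 for number 3. Alternatives were pseudocounts, filters, scaling, a library set term, array weights, a replicate block and leaving out each library; values within each set, without MTX 1 and class sums without their leading members were added after seeing the data.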

Additional observations from a re-analysis of the deposited data

How the results depend on the processing

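No member was called under the other pseudocounts, filters, scalings or the set term, and the medians of the members stayed below 0 there. With array quality weights, an estimate that did not converge and gave AA 2 a weight of 38.8, limma called 52 members in AA against Control, 24 in TSA against Control, 3 in TSA against AA and 45 for any difference among the 5 groups (37.1%, 23.7%, 17.3% and 31.5% of all genes), and the median of the members in AA against Control was -4.78. The cause was not tested. Leaving out 1 library at a time, members called ranged from 0 to 2 in TSA against Control, from 0 to 1 in TSA against MTX, TSA against HMS-I1 and TSA against AA, and from 0 to 1 for any difference. Only the fit without TSA 1 made such calls. The median of the members ranged from -3.79 to -1.05 in MTX, -3.63 to -0.75 in HMS-I1, -3.40 to -0.81 in AA and -3.72 to -0.84 in TSA against Control. With the replicate block, 0 members were called and the medians were -1.92, -1.76, -1.80 and -1.97 in the same order. With replicate block and set term they were -0.20, 0.19, -0.12 and 0.07, so those of HMS-I1 and TSA changed sign, again with 0 members called. Of 600 class medians under these alternatives, 6 moved by more than the pooled SD between libraries of a group, all under array weights. That SD is 1.96 to 3.93 on the log2 scale, since each group spans both sets, and 28 class medians changed sign, 12 with a set term (4 without and 8 with the replicate block) and 16 within 1 set (4 in the first, 12 in the second). Among class shares 16 moved by more than the SD of the group and 109 did not, mostly when the highest member of the class was left out. Scaling by the total without histone, mitochondrial and top genes shifted the median of all genes by 0.10 in AA and 0.12 in TSA, and quantile normalisation by 0.12 in TSA. A minimum mean of 50 kept 40 of 57 members.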
